A study of Mus musculus with 18 samples.

Results

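Chromosomal contacts of the mouse gene Il4 were compared between Stat6 knockout CD4 T cells and naive CD4 T cells, over 4 of the 18 arrays of the series. The arrays were chosen by their titles, 2 of Stat6 knockout cells (S6KO in the titles) and 2 of naive cells, with Il4 as the bait. Per the labels, the S6KO arrays came from Stat6 knockout cells kept under the conditions that drive T helper 2 (Th2) differentiation, and the naive arrays came from CD4 T cells with no treatment and no stated mutation. Cells of both groups are labelled as primary CD4+ T cells, and mouse age, strain, the form of the Stat6 allele and the way naive cells were obtained are not given in the sources used here. The 4 other arrays with the Il4 bait, 2 of Th1 and 2 of Th2 cells with no stated mutation, are set beside them. The comparison asks which changes of contacts seen in activated cells also occur in cells without Stat6. The S6KO and naive groups differ in genotype, in culture under Th2 conditions and in the first digits of their array numbers, and these cannot be told apart here. The arrays read contacts and not expression, so neither the loss of Stat6 nor the cell type could be checked against RNA.

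4C, circular chromosome conformation capture, joins DNA fragments that lie close together in the crosslinked nucleus and amplifies those joined to a chosen gene, the bait. Contacts on the bait's own chromosome (in cis) are usually the strongest, and contacts with other chromosomes (in trans) are weaker. Il4 encodes interleukin 4, the signature cytokine of Th2 cells, and it lies on chromosome 11 in a cluster with Il13 and Il5, which encode further Th2 cytokines, and Rad50, a DNA repair gene that holds the locus control region of the cluster. Interleukin 4 binds its receptor, the receptor activates JAK kinases, and these phosphorylate STAT6, which dimerises, enters the nucleus and binds paired half-sites of the form TTC and GAA. In textbook accounts STAT6 raises Gata3, the transcription factor that opens the cluster in Th2 cells, and T cells lacking STAT6 make little interleukin 4 under these conditions.

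The Il4 promoter is shown because it is the regulatory sequence of the bait and carries a STAT6-type motif, TTCNNNNGAA, which is its own reverse complement and so reads the same on both strands. RefSeq's promoter table for GRCm38.p6 lists 2 windows for Il4. The window at chr11:53618666-53618915, minus strand, covers the 250 bases before the transcription start, and capitals mark the match, whose first base lies at -167 from that start.
Il4 promoter: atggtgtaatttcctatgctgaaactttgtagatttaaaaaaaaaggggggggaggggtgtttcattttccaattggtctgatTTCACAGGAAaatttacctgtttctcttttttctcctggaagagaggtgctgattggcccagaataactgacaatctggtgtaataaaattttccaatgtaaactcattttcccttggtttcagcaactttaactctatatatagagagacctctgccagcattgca
The other Il4 window held no match. Of the 7 genes of the cytokine locus list (Il4, Il13, Il5, Rad50, Irf1, Csf2, Il3), 6 were in the table with 8 windows, of which 1 held the motif. The motif was held by 5.85% of all 32851 windows listed there. The match is a description of the letters and not a measured binding site, and its build is not that of the array positions below.

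Each array held log ratios, taken as log2, of 4C DNA over genomic DNA for 384942 probes, with a median spacing of 5037 bases, and precision is set by how few arrays there are. Positions are in mm8, a build inferred from the probe positions, since none is given in the sources used here. Each array was set to a median of 0 over its probes off chromosome 11, so that with base 2 a value of 1 stands for a ratio of 4C to genomic DNA doubled against that median. On chromosome 11 the arrays of a pair followed each other closely, with Pearson correlations across 233 bins of 0.951 for naive and 0.907 for S6KO. Off chromosome 11, across 4788 bins that share an array's noise and probe composition, they were 0.365 and 0.420. Naive replicate 1 and S6KO replicate 2 stood apart there, with correlations of 0.164 to 0.365 and 0.164 to 0.420 with the other Il4 arrays. The sorted values of both S6KO arrays were equal within 0.011 for 99.9% of probes. The share was 77.8% for the naive pair, 100% for the Th1 pair and 10.8% for the Th2 pair. Arrays of a pair thus share their overall distribution to different degrees, and all these pairs enter the fit's estimate of the spread. The labels do not state that the arrays of a pair stem from different mice or cultures, and p-values then rest on a spread that may be technical only. The design text mentions an array made from a pool of biological replicates without saying which.

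At the bait itself the S6KO arrays were as high as the naive arrays or higher. The bait bin, taken as the 500-kb bin with the highest mean over the 8 Il4 arrays, was chr11:53000001-53500000 in band 11qB1.3. It read 2.74 and 2.59 in naive replicates 1 and 2 and 3.14 and 2.77 in S6KO replicates 1 and 2. It was the highest bin in both naive arrays and in S6KO replicate 1, and in the other 5 Il4 arrays the neighbouring bin chr11:53500001-54000000 was highest. The listed genes of the cytokine cluster lie in this band. Within 1 Mb of the bait bin the probes averaged 2.20 and 2.09 in the naive arrays and 2.18 and 1.96 in the S6KO arrays, and these ranges overlap. The sides went opposite ways without overlap. On the distal side the S6KO arrays read 2.57 and 2.63 against 2.44 and 2.26 in the naive arrays. On the centromeric side they read 1.75 and 1.22 against 1.93 and 1.90.

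Within 3 Mb of the bait, the S6KO profile was higher than the naive profile in some windows and lower in others. In windows of 100 kb within 3 Mb of the bait, the S6KO arrays lay below both naive arrays in 30 of 63 windows and above both in 15. From chr11:53300001 to 54000000, 7 windows in a row had both S6KO arrays above both naive arrays, with means of 3.22 and 2.90 against 2.73 and 2.51. From chr11:50300001 to 51400000, 11 windows in a row had them below, at 0.43 and 0.41 against 1.38 and 1.51. From chr11:55000001 to 55500000, 5 windows in a row were lower, at 1.14 and 0.98 against 1.99 and 2.11. A further run of 5 lower windows lay from chr11:52200001 to 52700000, with 1.66 and 1.18 in the S6KO arrays and 2.15 and 2.10 in the naive arrays. These runs were chosen after their values were seen and are a description without a test.

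**Figure D1:**
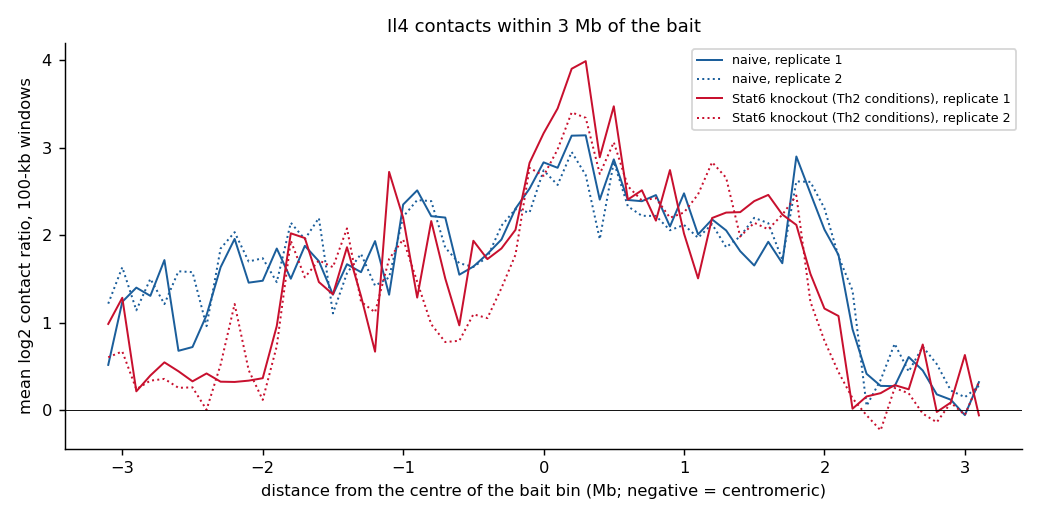
Mean log2 contact ratio (vertical axis) in 100-kb windows against distance from the centre of the bait bin in Mb (horizontal axis), for the 2 naive and 2 S6KO arrays, each line 1 array. The S6KO lines exceed the naive lines just distal of the bait and fall below them in the stretch around 2 to 3 Mb on the centromeric side and around 2 Mb on the distal side.

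The 500-kb bins on both of those flanks showed the same sizes but did not pass the test. In chr11:55000001-55500000 the change was -0.99 (adjusted p = 0.114, limma). In chr11:50500001-51000000 it was -0.93 (adjusted p = 0.104, limma), with 1.13 and 1.42 in the naive arrays and 0.42 and 0.27 in the S6KO arrays. The Th1 arrays, which share the fit's estimate of the spread, differed widely in these bins, at 1.17 and 2.33 in the first and 0.35 and 1.36 in the second. With either Th1 array left out the adjusted p values were 6.62e-06 and 2.92e-05, with quantile normalization 0.0102 and 0.0285, and after scaling by the spread off chromosome 11 they were 0.143 and 0.0788 (limma).

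Over the genome, the Il4 bait of S6KO cells had lower contacts on chromosome 11 and slightly higher values elsewhere. Of 5021 bins tested, 70 (1.39%) passed an adjusted p of 0.05 in limma, and 629 had an unadjusted p under 0.05. The 58 lower bins (1.16% of all bins) were all on chromosome 11, where they made up 24.9% of 233 bins. All 58 had both S6KO arrays below both naive arrays. The 12 higher bins (0.239% of all bins) were all on other chromosomes, 0.251% of 4788. The median change was -0.30 on chromosome 11 and 0.05 off it. Counted without a test, 146 of the 233 chromosome 11 bins (62.7%) had both S6KO arrays below both naive arrays and 9 (3.86%) had both above. Off chromosome 11, 3.82% of 4788 bins had both below and 31.6% had both above.

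The number of called bins rested on single arrays. Without S6KO replicate 2 it was 4, without naive replicate 2 it was 21 and without S6KO replicate 1 it was 25. Without either Th1 array it was 123. The median SD between arrays of a pair on chromosome 11 was 0.202 for Th1, 0.0924 for naive, 0.0644 for S6KO and 0.0506 for Th2.

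**Figure D2:**
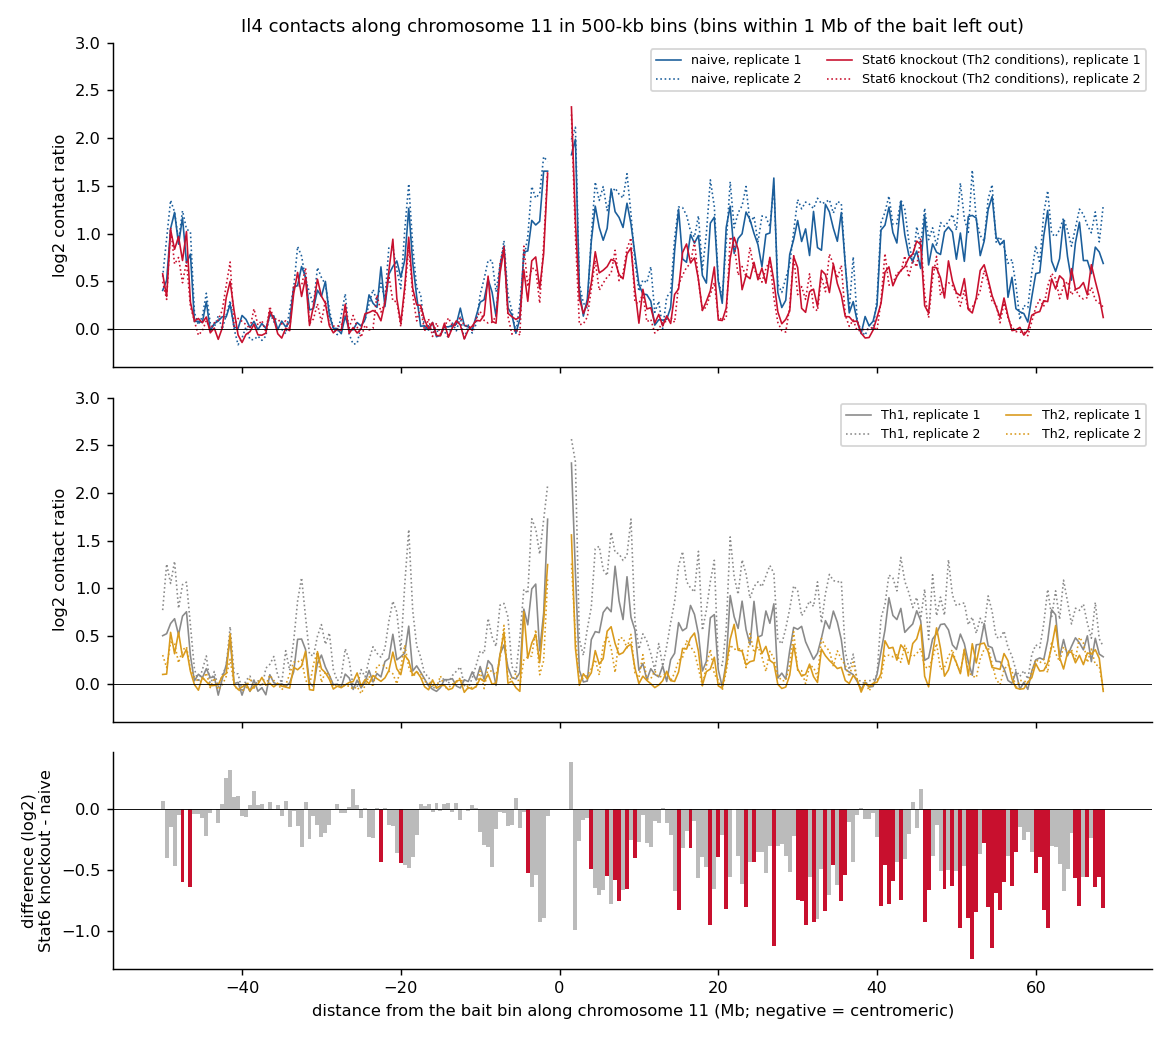
Log2 contact ratio in 500-kb bins of chromosome 11 against distance from the bait bin in Mb: naive and S6KO arrays (top), Th1 and Th2 arrays (middle), and the S6KO minus naive difference (bottom), with the 58 bins past the threshold in red. Peaks lie at the same places in all arrays, and the S6KO peaks are lower than the naive peaks mainly on the distal side. The lines are broken at the bait, where bins within 1 Mb were left out.

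The called bins were unevenly spread along the chromosome. On the centromeric side of the bait 5 of 98 bins (5.1%) were lower, and on the distal side 53 of 135 (39.3%). The change in the 58 bins ranged from -1.23 to -0.28 with a median of -0.66. Distances repeat this without any call. Beyond 20 Mb on the distal side, the probes averaged 0.79 and 0.97 in the naive arrays and 0.38 and 0.36 in the S6KO arrays. Beyond 20 Mb on the centromeric side they averaged 0.28 and 0.32 in the naive arrays and 0.22 and 0.21 in the S6KO arrays. The distal minus centromeric difference was thus 0.51 and 0.65 in naive cells and 0.16 and 0.15 in S6KO cells, and the pairs do not overlap. In Th1 arrays it was 0.23 and 0.35 and in Th2 arrays 0.13 and 0.13.

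The difference was present in every distance class outside the first Mb. At 1 to 2 Mb from the bait bin the level was 1.78 and 1.92 in the naive arrays and 1.46 and 1.43 in the S6KO arrays. At 2 to 5 Mb it was 0.76 and 0.91 against 0.46 and 0.37. At 10 to 20 Mb it was 0.38 and 0.49 against 0.24 and 0.20. Over 40 Mb away it rose again in both groups, to 0.71 and 0.87 against 0.38 and 0.35. With medians over probes in place of means, the S6KO minus naive difference went from -0.41 to -0.77 at 1 to 2 Mb and shrank in the farther classes, from -0.27 to -0.14 at 20 to 40 Mb and from -0.42 to -0.24 over 40 Mb. The shape of decay, steep to about 2 Mb and then uneven, was shared by both groups, and the S6KO arrays lay below both naive arrays in each of these classes.

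Named regions were the 5 with the largest mean change among called bins without overlap, after neighbouring called bins were merged into 36 regions. They are all on the distal side of the bait. The region chr11:80000001-80500000 in band 11qB5, 26.5 Mb from the bait bin, read 1.58 and 1.50 in the naive arrays and 0.51 and 0.33 in the S6KO arrays. Its change was -1.12 (SE 0.0962; adjusted p = 0.000417, limma). Both S6KO arrays lay far below both naive arrays.

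The region chr11:104500001-106000000 in 11qE1 held 3 adjacent bins, 51.0 Mb from the bait bin. It read 1.18 and 1.28 in the naive arrays and 0.23 and 0.24 in the S6KO arrays, a mean change of -0.99 (adjusted p of its best bin = 0.00039, limma). Both S6KO arrays lay far below both naive arrays here too, and close to each other. Its middle bin, chr11:105000001-105500000, had the largest change of all called bins, -1.23 (adjusted p = 0.0083, limma).

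A second region of 11qE1, chr11:103500001-104000000, read 1.01 and 1.53 in the naive arrays and 0.35 and 0.24 in the S6KO arrays (change -0.97, adjusted p = 0.00676, limma). In band 11qB4, chr11:72000001-72500000 read 1.11 and 1.56 in the naive arrays and 0.40 and 0.36 in the S6KO arrays (change -0.95, adjusted p = 0.0075, limma). In band 11qC, chr11:85000001-85500000 read 1.23 and 1.26 in the naive arrays and 0.42 and 0.23 in the S6KO arrays (change -0.93, adjusted p = 0.00687, limma). In all 5 regions the groups did not overlap, which the naming rule required. The spread was wider in the naive pair for the 11qB4 region and this 11qE1 region. The calls in this 11qE1 region, in 11qB4 and in 11qC were lost without either S6KO array, with adjusted p values of 0.0563 to 0.16 (limma). Without naive replicate 2 those in 11qB4 and 11qC were lost (0.0702 and 0.079), and after scaling by the spread off chromosome 11 those in 11qB5 and 11qC (0.0763 and 0.0757).

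**Figure D3:**
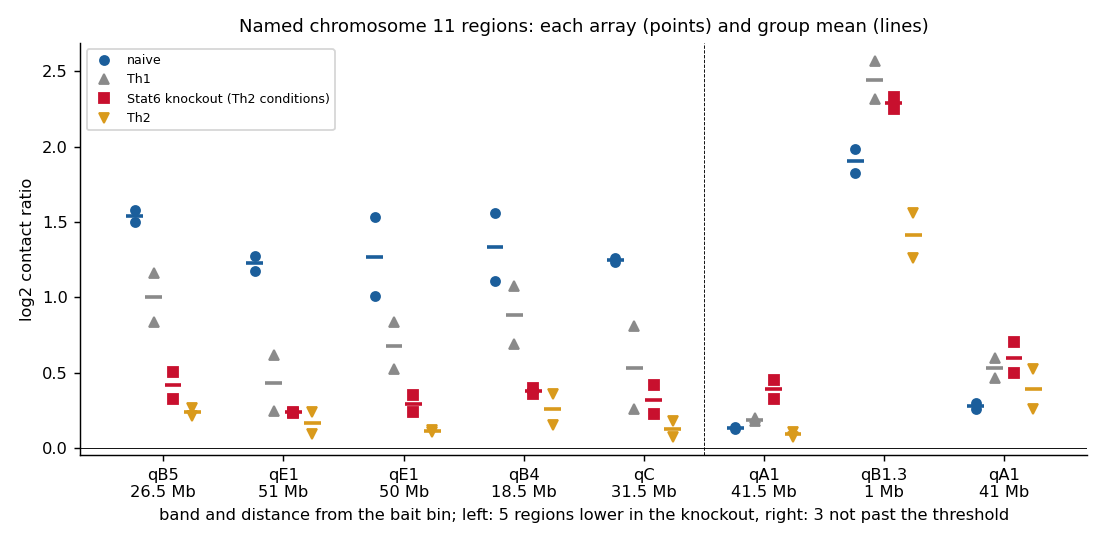
Log2 contact ratio (vertical axis) of the named chromosome 11 regions in each of the 8 Il4 arrays (points) with group means (short lines), ordered by rule and labelled with band and distance from the bait bin. In the 5 regions on the left the S6KO points lie below both naive points, which the naming rule required. In the 3 regions on the right, which did not pass the test, the S6KO points lie above both naive points.

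The same regions read as follows in the activated wild-type groups, which are set against the same naive arrays and so share them. At the 11qB5 region the Th1 arrays read 0.84 and 1.16 and the Th2 arrays 0.22 and 0.27. At the 3-bin 11qE1 region the Th1 arrays read 0.24 and 0.62 and the Th2 arrays 0.24 and 0.09. Th2 minus naive passed the test in all 5 regions (changes from -1.30 to -1.06), and Th1 minus naive passed in 1 of 5, the 3-bin 11qE1 region (best bin -0.69, adjusted p = 0.00304, limma).

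The S6KO level was not distinguished from the Th2 level in any of the 5 regions by the direct test. S6KO minus Th2 was 0.17 at the 11qB5 region (95% interval -0.04 to 0.39, adjusted p = 0.72, limma). It averaged 0.07 over the 3-bin 11qE1 region, whose best bin had 0.17 (95% interval 0.03 to 0.32, adjusted p = 0.616, limma). It was 0.18 and 0.12 at the next pair and 0.19 at the 11qC region (adjusted p 0.775 to 0.87, limma). The S6KO minus Th1 difference was -0.58 at the 11qB5 region (95% interval -0.80 to -0.37, adjusted p = 0.213, limma) and -0.50 at the 11qB4 region (-0.82 to -0.18, adjusted p = 0.648, limma). These intervals are not adjusted for the number of bins, and the misses do not show that the groups are alike.

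Over all bins, S6KO and activated wild-type cells differed in few places by the direct test. S6KO minus Th2 gave 1 called bin of 5021 (0.0199%) and 382 at an unadjusted p under 0.05, and S6KO minus Th1 gave 0 in limma with 311 at an unadjusted p under 0.05. Against the same naive arrays, Th2 gave 112 called bins (2.23%), of which 111 were lower bins on chromosome 11 (47.6% of its bins), and Th1 gave 6 (0.119%), all lower on chromosome 11 (2.58%). The mean level of chromosome 11 was 0.60 and 0.73 in the naive arrays, 0.34 and 0.64 in the Th1 arrays, 0.35 and 0.33 in the S6KO arrays and 0.18 and 0.18 in the Th2 arrays. In that order of means, naive, Th1, S6KO and Th2, the Th1 arrays span from the S6KO level to within the naive range, so that Th1 is not separated from either neighbour. The S6KO arrays lay above both Th2 arrays and below both naive arrays.

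Bin by bin, both S6KO arrays lay above both Th2 arrays in 138 of 233 chromosome 11 bins (59.2%) and below both in 7 (3.0%), while off chromosome 11 they lay above in 32.4% and below in 7.5% of 4788 bins. The whole-chromosome difference of S6KO and Th2 was 0.16 (adjusted p = 0.199, limma). Without either Th1 array, S6KO minus Th2 gave 15 called bins, all higher and 13 of them on chromosome 11. Without Th1 replicate 1, S6KO minus Th1 gave 71 called bins, 70 of them lower on chromosome 11, and without Th1 replicate 2 it gave 0, so the comparison with Th1 rested on which Th1 array was kept.

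The bin called between S6KO and Th2 cells was chr11:54500001-55000000 in 11qB1.3, 1.0 Mb from the bait bin. It read 2.33 and 2.25 in the S6KO arrays, 1.56 and 1.26 in the Th2 arrays, 1.83 and 1.99 in the naive arrays and 2.31 and 2.57 in the Th1 arrays. The S6KO and Th1 values overlap and lie above both naive arrays, and the Th2 values lie below them. S6KO minus Th2 was 0.88 (SE 0.105; adjusted p = 0.024, limma), and S6KO minus naive was 0.38 (adjusted p = 0.139, limma). S6KO minus naive turned to -0.14 after scaling by the spread off chromosome 11 (adjusted p = 0.9, limma). S6KO minus Th2 had 0 called bins without either naive array, without either S6KO array and without Th2 replicate 2, and this bin was not called either with extreme probes left out or with trend and robust settings.

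Contacts higher in S6KO than in naive cells on chromosome 11 were few and did not pass the test. Besides the bin beside the bait, the rule named 2 adjacent bins in 11qA1. The bin chr11:11000001-11500000 read 0.13 and 0.14 in the naive arrays and 0.33 and 0.45 in the S6KO arrays (change 0.26, adjusted p = 0.0725, limma). The bin chr11:11500001-12000000 read 0.26 and 0.30 in the naive arrays and 0.50 and 0.70 in the S6KO arrays (change 0.32, adjusted p = 0.161, limma). In the first of these the Th1 arrays (0.20 and 0.18) and the Th2 arrays (0.11 and 0.08) stayed lower than both S6KO arrays, and in the other they overlapped them.

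The remaining 31 called regions of chromosome 11 spanned 1 to 6 bins. The longest, chr11:106500001-109500000 in 11qE1, fell from a naive mean of 1.07 to an S6KO mean of 0.35 over 6 bins. Regions of 4 bins lay at chr11:93500001-95500000 in 11qD (1.16 to 0.50) and chr11:113000001-115000000 in 11qE2 (0.95 to 0.27). A region of 3 bins, chr11:83000001-84500000 in 11qC, went from 1.18 to 0.36. The 5 lower bins on the centromeric side were single bins, at chr11:5500001-6000000 and chr11:6500001-7000000 in 11qA1, at chr11:30500001-31000000 and chr11:33000001-33500000 in 11qA4, and at chr11:49000001-49500000 in 11qB1.2. At the second of the 11qA4 bins the S6KO mean was 0.04, against 0.48 in naive cells.

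Ranks within each array, which do not depend on its scale, also separated the groups. Among each array's highest 5% of probes, 27.4% and 34.1% lay on chromosome 11 in the naive arrays and 15.4% and 16.6% in the S6KO arrays, where 4.76% of all probes lie. The Th1 arrays had 12.6% and 23.0% and the Th2 arrays 11.6% and 8.85%. A bin was called a contact in an array where it held more of those probes than expected. Both naive arrays called 158 chromosome 11 bins and both S6KO arrays 95. All 95 were among the 158, which is 60.1% of the naive contacts, and 36 bins were contacts in both naive arrays and neither S6KO array, against 0 the other way. With the highest 2% of probes the naive count was again 158 and the S6KO count fell to 54. With the highest 5%, on the distal side 72 of 116 naive contacts were contacts in both S6KO arrays, and on the centromeric side 23 of 42.

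Across the 233 bins the S6KO mean followed the naive mean with a correlation of 0.773 and a slope of 0.495, so naive peaks were mostly present at lower height. The slope was 0.617 over 98 centromeric bins and 0.519 over 135 distal bins. For Th1 the slope over the chromosome was 0.722 and for Th2 0.286, against the same naive arrays. The bins share arrays and neighbours, so these are descriptions.

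By cytogenetic band, the naive and S6KO arrays separated in 16 of the 18 bands of chromosome 11. Of 383 bands tested, 1 was lower past the threshold (0.261%) and 2 were higher (0.522%). These counts moved with single arrays: 11 lower and 5 higher without either Th1 array, 5 lower (1 of them on chromosome 11) and 41 higher without S6KO replicate 1, and 0 of both without any other single array. With quantile normalization 7 were lower, all on chromosome 11, and 1 was higher. The lower band was 11qE1, with 0.96 and 1.13 in the naive arrays and 0.36 and 0.31 in the S6KO arrays (change -0.71, adjusted p = 0.0352, limma). It held 11 called bins of 15. Band 11qE1 holds Prkca, which encodes protein kinase C alpha, and Cd79b, a subunit of the B cell receptor complex. Its call was lost without either naive array, without either Th2 array and without S6KO replicate 2 (adjusted p 0.0764 to 0.277, limma), and after scaling by the spread off chromosome 11 (adjusted p = 0.0905, limma).

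The bands next in size missed the threshold, but 11qC, 11qB2, 11qB4, 11qB5, 11qD and 11qE2 passed it with quantile normalization (adjusted p 0.0256 to 0.0441, limma), without either Th1 array (0.000323 to 0.00159) and after scaling by the level near the bait (0.0231 to 0.0359). Their adjusted p values reached 0.277 without S6KO replicate 2, and 11qC alone of the 6 passed with the replicate block (0.0491). Band 11qC read 0.94 and 1.15 in the naive arrays and 0.40 and 0.43 in the S6KO arrays (change -0.63, adjusted p = 0.0611, limma). It holds the chemokine genes Ccl3, Ccl4 and Ccl5 and Mpo, the myeloperoxidase of neutrophils, and 8 of its 16 bins were called. Band 11qB2 read 1.11 and 1.30 against 0.64 and 0.67 (change -0.55, adjusted p = 0.0701, limma), with 4 of 6 bins called. Band 11qB4 had a change of -0.52 and 2 called bins of 7.

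The band of the bait, 11qB1.3, had 1.13 and 1.31 in the naive arrays and 0.78 and 0.67 in the S6KO arrays over its 16 bins outside the bait zone (change -0.50, adjusted p = 0.128, limma). It holds all 7 genes of the cytokine locus list and Tcf7, a transcription factor of naive T cells. Band 11qE2, with Socs3, an inhibitor of JAK-STAT signalling, and Birc5, the mitotic protein survivin, went from 0.66 and 0.90 to 0.30 and 0.27 (change -0.49, adjusted p = 0.0644, limma), and 12 of its 24 bins were called. Band 11qB5, with Nos2, the inducible nitric oxide synthase, had a change of -0.48 and 4 called bins of 16. Band 11qD, which holds Tbx21, the Th1 transcription factor T-bet, Stat3, Stat5a, Stat5b and the naive T cell chemokine receptor gene Ccr7, had 0.71 and 0.83 against 0.42 and 0.40 (change -0.36, adjusted p = 0.0701, limma), with 8 called bins of 25.

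Bands near the centromere changed little. Band 11qA1, with Ikzf1, the lymphoid transcription factor Ikaros, read 0.40 and 0.48 in the naive arrays and 0.35 and 0.32 in the S6KO arrays. Bands 11qA2 and 11qA5 had almost no contacts in any group, with naive means of 0.01 and 0.02 and S6KO means of 0.03 and 0.02, and their arrays overlapped. Across the 18 bands, protein-coding genes per Mb in the RefSeq table of GRCm38.p6 had a correlation of 0.767 with the naive level, 0.706 with the S6KO level and -0.715 with the change. Neighbouring bands and the same arrays enter all 3, so these are descriptions, and level and change share the naive arrays.

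**Figure D4:**
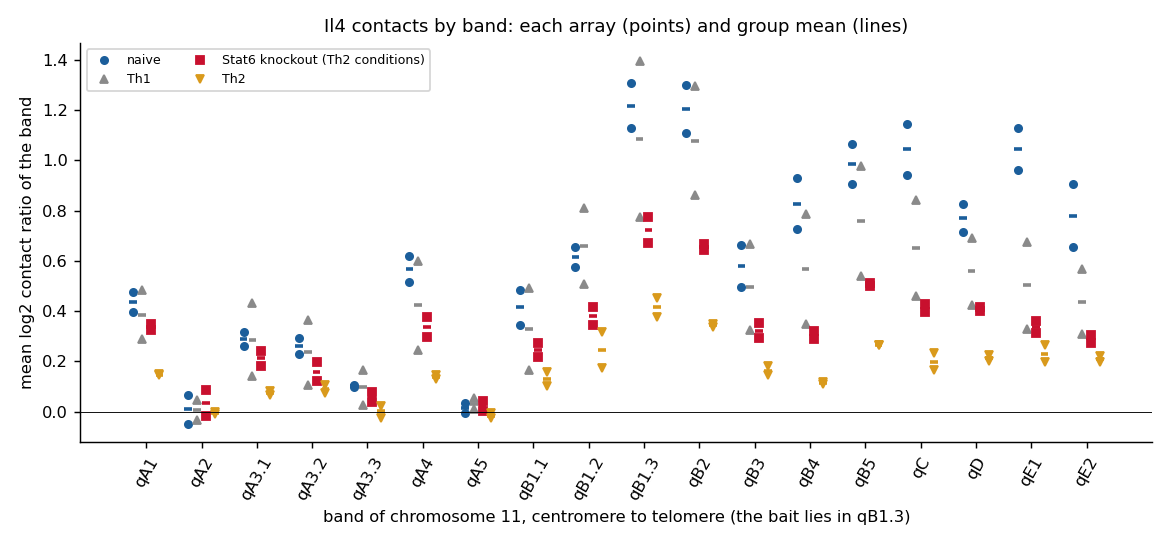
Mean log2 contact ratio (vertical axis) of each band of chromosome 11 in each Il4 array (points) with the group means (short lines), from centromere to telomere. The S6KO points lie below both naive points in 16 bands, most widely in 11qC and 11qE1, and overlap them in 11qA2 and 11qA5.

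Listed genes were placed by band only, 132 of 145 of them, since no annotation of the array's build was used, and the called bins of a band may lie away from its listed genes. Of the 18 bands with both S6KO arrays below both naive arrays (4.7% of 383), 16 were on chromosome 11, and both S6KO arrays were above in 164 bands (42.8%). The median change over all bands was 0.04. The list of immune genes of chromosome 11 lay in 8 bands, all with S6KO below naive, with 1 past the threshold (11qE1) and a median change of -0.31. That is near the level of the whole chromosome, where 16 of 18 bands had S6KO below naive and the median change over bins was -0.30. The count is therefore no result about immune genes. The cytokine locus list lay in the single band 11qB1.3.

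Lists whose genes lie mostly on other chromosomes showed no called band, apart from 11qE1 in the B cell list through Cd79b. The Th2 programme had 12 of 15 genes placed in 11 bands, none on chromosome 11, with a median change of 0.06. Both S6KO arrays lay above both naive arrays in 6 of these bands (54.5%), against 42.8% of all bands. The share was 50.0% for the naive T and B cell lists, so the count is not particular to Th2 genes. Within it Gata3 lies in 2qA1, which read 0.01 and -0.01 in the naive arrays and 0.08 and 0.13 in the S6KO arrays (change 0.10, adjusted p = 0.0933, limma). The band of Stat6 itself, 10qD3, read 0.01 and 0.03 in the naive arrays and 0.08 and 0.05 in the S6KO arrays (adjusted p = 0.358, limma). The band of Il4ra, the interleukin 4 receptor chain, was 7qF3 with a change of 0.06.

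The other lists were similar in size. Medians over their bands were 0.04 for the interleukin 4 receptor, JAK-STAT and SOCS genes (16 bands), 0.05 for the Th1 programme (13), 0.03 for naive T (10), 0.03 for pan-T (7), 0.03 for activation and cell cycle (17), 0.04 for B cell (6), 0.05 for myeloid and NK (8), -0.01 for neuronal (6) and 0.03 for housekeeping genes (7). Each of these is within 0.06 of the median of all bands.

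Off chromosome 11 the S6KO arrays read slightly above the naive arrays, and so did the Th1 arrays. The median change over these bins was 0.049 for S6KO minus naive, 0.042 for Th1 minus naive and 0.017 for Th2 minus naive. Between S6KO and Th1 it was 0.006, so the rise was not particular to the knockout. On X the Th1 arrays (0.007 and -0.014) and the Th2 arrays (-0.009 and -0.013) lay below both S6KO arrays. Whole-chromosome means passed the test for 12 of 21 chromosomes, 11 of them higher (52.4%) and chromosome 11 lower by -0.33 (adjusted p = 0.0326, limma). The 11 were chromosomes 2, 5, 7, 8, 9, 10, 12, 13, 14, 18 and X. Their changes, from 0.04 to 0.15, were smaller in size than that of chromosome 11. The X chromosome read -0.003 and -0.081 in the naive arrays and 0.032 and 0.179 in the S6KO arrays (change 0.15, adjusted p = 0.0404, limma). In 31.6% of the 4788 bins off chromosome 11 both S6KO arrays lay above both naive arrays, and on X in 62.3% of its 292 bins. S6KO replicate 2 was far higher there than replicate 1, and the change was 0.07 without it (adjusted p = 0.0836, limma). The count of chromosomes past the threshold was 0 without naive replicate 1 or S6KO replicate 2, 1 without naive replicate 2, 2 without either Th1 array and 7 without either Th2 array. The call of chromosome 11 itself was kept without either Th1 array and lost without any other single array. With quantile normalization no chromosome passed, and the sign of 7 chromosomes turned to lower in S6KO cells, as listed in the closing section. With the median of each bin's probes in place of the mean, the median change off chromosome 11 was -0.0075.

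**Figure D5:**
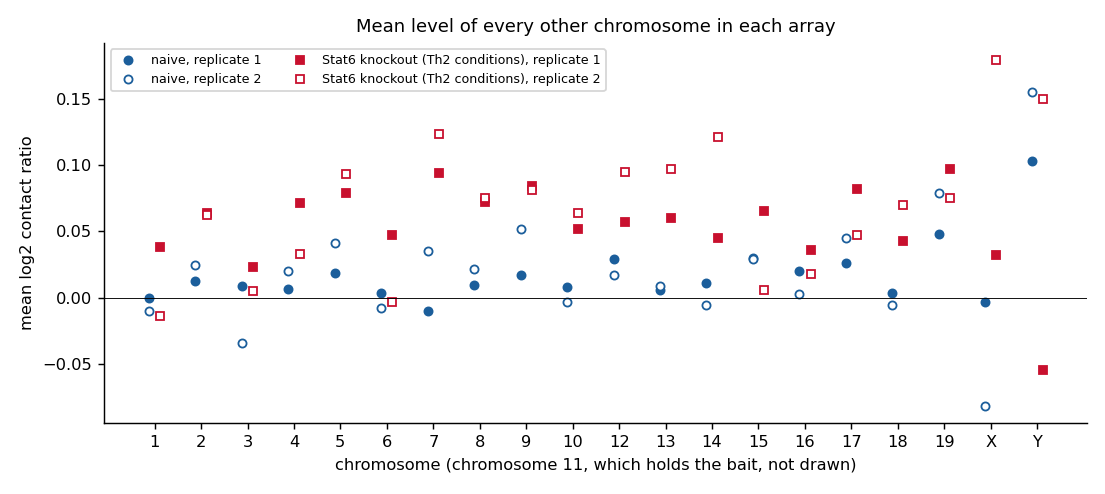
Mean log2 contact ratio (vertical axis) of each chromosome other than 11 in the naive and S6KO arrays (horizontal axis: chromosome), filled points for replicate 1 and open points for replicate 2. Most S6KO points lie above the naive points by less than 0.1, and chromosomes 7, 14 and X show the widest gaps.

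Of the 12 higher bins in trans, 5 were on X, 3 on chromosome 7 and 1 each on chromosomes 2, 8, 12 and 13. The largest change was in chr8:84500001-85000000 (8qC2), with 0.01 and -0.11 in the naive arrays and 0.33 and 0.31 in the S6KO arrays (change 0.37, adjusted p = 0.0136, limma). The Th1 arrays (0.01 and 0.03) and the Th2 arrays (0.03 and -0.07) lay at the naive level there. The bin chrX:149500001-150000000 (XqF3) read -0.01 and -0.21 against 0.26 and 0.27 (adjusted p = 0.0211, limma). The bin chrX:72000001-72500000 (XqA7.3) read -0.09 and -0.12 against 0.15 and 0.32 (adjusted p = 0.0211, limma).

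The other named trans bins had few probes. The bin chr7:38000001-38500000 (7qB3) had 21 probes and read -0.38 and -0.45 against -0.14 and 0.02, so it stayed near or below the median off chromosome 11 in all arrays. The bin chr13:61500001-62000000 (13qB2) had 29 probes and read -0.09 and -0.18 against 0.12 and 0.27 (adjusted p = 0.0364, limma). Its band 13qB2 passed too (change 0.18, adjusted p = 0.0352, limma), as did XqA3.2, a band of 2 bins (change 0.22, adjusted p = 0.0352, limma). Higher bins in trans numbered 0 without S6KO replicate 2, 2 without naive replicate 2 and 3 without naive replicate 1 or either Th2 array, and the 2 higher bands were not called in those fits. None of the 12 bins was called when chromosome 11 was left out of the fit, which gave 0 called bins in limma and 559 at an unadjusted p under 0.05.

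Trans bins lower in S6KO cells did not pass the test. The 3 with the smallest p were chr19:45000001-45500000 in 19qC3 (0.33 and 0.37 in the naive arrays, 0.15 and 0.11 in the S6KO arrays, adjusted p = 0.109, limma), chr15:96500001-97000000 in 15qF1 (change -0.20, adjusted p = 0.143, limma) and chr16:31000001-31500000 in 16qB2 (change -0.20, adjusted p = 0.173, limma). At the 19qC3 bin the Th1 arrays read 0.31 and 0.39, as in naive cells, and the Th2 arrays 0.12 and 0.17, as in S6KO cells. By ranks, both naive arrays called 8 trans contacts of 4788 bins and both S6KO arrays 4, and 0 were shared. With the highest 10% of probes the order turned, with 8 in both naive arrays and 15 in both S6KO arrays.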

How the data were processed

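Members were the Il4-bait arrays titled naive and S6KO, with groups taken from the titles. The arrays and the gene lists were chosen with earlier results of these data known. Per the labels' protocols, the authors labelled 4C DNA with Cy5 and genomic DNA cut with HindIII and Csp6I with Cy3. The authors deposited 1 log ratio for each probe, taken here as log2, since log base, scanner steps and genome build are not given in the sources used here. The build mm8 was inferred, since 0 of 21 chromosomes had a probe past its mm8 end. The protocol text describes adherent cells and other baits.

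The median over probes outside chromosome 11 was subtracted per array, and probes were averaged per 500-kb bin (minimum 20 probes, leaving out 1 Mb on either side of the bait bin). The test was limma 3.58.1 under R 4.3.3 over all 8 Il4 arrays (lmFit, contrasts, eBayes, two-sided), with Benjamini-Hochberg adjustment over all bins, bands or chromosomes at 0.05. Adjacent called bins were merged, and the 5 regions of largest change in each direction were named, or the 3 bins of smallest p where fewer passed. Bands are those of circlize 0.4.16, and genes within 250 kb of a band edge were left out. The fit was tested on simulated data with 200 of 5021 bins changed. It recovered 13% of changes of 0.2 and 73% of changes of 0.4, and 5.49% of its calls were false. The changed bins were drawn at random over the genome, with noise independent between bins and an equal spread in all groups. The real calls lay mostly on chromosome 11, where the spread differed between groups, so these rates do not describe them. Same-numbered naive and S6KO arrays did not deviate together, as given in the closing section. Alternatives were other bin sizes, per-bin medians, normalizations, blocks and left-out arrays. Tables and figures used Python 3.11.15, pandas 2.3.3 and matplotlib 3.10.9.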

Additional observations from a re-analysis of the deposited data

Results flagged for a closer look

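The difference between S6KO and Th2 cells at chr11:54500001-55000000 stood out because it was the 1 bin in which the direct test of the 2 groups passed (change 0.88). Both S6KO arrays lay above both naive arrays there and both Th2 arrays below them. The count of called bins of this comparison was 0 with 1000-kb bins, with medians, with quantile normalization, after scaling by the spread off chromosome 11 or by the level near the bait, and with the replicate number as a block. It was also 0 without either naive array, either S6KO array or Th2 replicate 2. With extreme probes left out (1 call) and with trend and robust settings (2 calls) none of the calls was this bin.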

How the results depend on the processing

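The count of 70 bins between S6KO and naive cells kept chromosome 11 as the place of all or nearly all lower calls under every alternative that tested that chromosome, but its size moved. It was 110 with 200-kb and 45 with 1000-kb bins, 44 with medians per bin, 25 after scaling by the spread off chromosome 11, 38 without extreme probes, 109 with the array number series as a random block, 127 with the 4 arrays alone and 0 with chromosome 11 left out. Shared calls of the same direction were 15 of the 25 after scaling. With trend and robust settings 42 of 78 calls were higher, all off chromosome 11, against 12 of 70. Scaling by the level near the bait, added after seeing the data, gave 85, and leaving out X and Y, added likewise, gave 64. Leave-one-out fits gave 4 to 123 bins for S6KO minus naive, 0 to 15 for S6KO minus Th2, 0 to 71 for S6KO minus Th1, 1 to 86 for Th1 minus naive and 48 to 143 for Th2 minus naive, 0 to 46 bands and 0 to 9 chromosomes. Where 1 array remained in a group, its spread was taken from the other groups. The cause of these moves was not tested.

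Other comparisons moved too. S6KO minus Th2 gave 0 bins with quantile normalization, after scaling and with the replicate block. Th1 minus naive gave 41, 1 and 2 bins there, and Th2 minus naive gave 49 after scaling. Bands past the threshold were 8 with quantile normalization, 0 after scaling and 11 after scaling by the level near the bait, against 3, and chromosomes were 0 with quantile normalization against 12. Medians over probes changed the S6KO minus naive difference to 0.58 in the bait bin, -0.77 at 1 to 2 Mb, -0.28 at 2 to 5 Mb, -0.21 at 5 to 10 Mb, -0.12 at 10 to 20 Mb, -0.14 at 20 to 40 Mb and -0.24 over 40 Mb. With the highest 2% of probes, 54 bins were contacts in both S6KO arrays.

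Signs turned only for values near 0 or not past the threshold. With quantile normalization bands 11qA2 and 11qA5 were at -0.0225 and -0.0401, and chromosomes 1, 3, 6, 15, 16, 17 and 19 at -0.0215, -0.0119, -0.0134, -0.0320, -0.0217, -0.0075 and -0.0141. After scaling, 11qA2, 11qA5 and chromosome 15 were at -0.0025, -0.0040 and -0.0042, and the bin chr11:54500001-55000000 at -0.14. Leave-one-out fits ranged from -0.0345 to 0.0818 for 11qA2, -0.0117 to 0.0274 for 11qA5, -0.0099 to 0.0427 for chromosome 1, -0.0004 to 0.0489 for chromosome 6, -0.0236 to 0.0351 for chromosome 15 and -0.1823 to 0.0207 for chromosome Y.

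With the replicate block, which pairs arrays by number, 66 bins were called between S6KO and naive cells. Same-numbered naive and S6KO arrays deviated in opposite directions (correlation -0.382), and the crossed pairing, added after seeing the data, gave 253 bins. For same-numbered arrays of other groups the correlation was 0.369 for naive and Th1 and 0.282 for naive and Th2. It was 0.0215 for Th1 and Th2, -0.135 for Th1 and S6KO and -0.142 for Th2 and S6KO. With 2 arrays in each group, these values cannot decide whether the numbers mark a shared batch. The main fit used no pairing, since the labels do not say what the numbers mark.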
